A study of Homo sapiens with 16 samples.

Results

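CDK8, CDK19, CDK11A, CDK11B, CDK12 and CDK13 are cyclin-dependent kinases that act on transcription and RNA processing rather than on the cell cycle, and CCNC, CCNL1, CCNL2 and CCNK encode the cyclins that activate them. The 10 genes were taken by symbol, and all 10 had a row among the 18080 gene rows used from the deposited count table. All 10 also passed the filter on low counts, and 6 of them were listed in the authors' table of splicing variations. The cells were wild-type HL60, a human acute promyelocytic leukaemia line, given either DMSO, the solvent, or 50 nM of the CDK7 inhibitor SY-351, both for 5 h. Polyadenylated RNA was sequenced from 4 numbered replicates in each group, and 16 records (2 technical repeats a replicate) stood behind 8 count columns. Both groups came from the same line, and the labels name no separate cultures; the p-values then reflect only how far these libraries differ, which may be technical.

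CDK7, in the transcription factor TFIIH, phosphorylates RNA polymerase II and the activating loop of other cyclin-dependent kinases. CDK8 or its paralog CDK19 pairs with cyclin C in the kinase module of Mediator, the complex that links transcription factors to the polymerase. CDK11, made from the neighbouring genes CDK11A and CDK11B, pairs with cyclin L1 or L2 and is known for its role in pre-mRNA splicing and in making histone mRNA. CDK12 and CDK13 pair with cyclin K, phosphorylate the polymerase during elongation, and are known for keeping up the expression of long genes, many of them for DNA repair.

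Total counts were 103.7 to 124.2 M in the DMSO libraries and 43.3 to 77.9 M in the SY-351 libraries. DMSO 1 and 2 stood apart from the other 6 libraries: across genes, the log2 CPM (counts scaled to the library total and by TMM factors) of these 2 correlated with those of DMSO 3 and 4 at r = 0.751 to 0.778, while DMSO 3 and 4 correlated with the SY-351 libraries at 0.936 to 0.953. Fitted changes and ratios are therefore given with all 4 DMSO libraries and with DMSO 3 and 4 as the controls. Of the granulocytic genes that check the cell type, MPO was at 1.21e+04 to 4.81e+04 CPM. CTSG reached 670 CPM and CD33 86.4 CPM, each lowest in DMSO 2, at 19.4 and 3.1 CPM. T cell, erythroid and epithelial genes stayed at or below 3.4 CPM in every library, and the B cell gene CD79A ran from 4.53 to 15.9 CPM.

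The sequences that matter most to the results lie in CCNL1, CCNL2 and CDK8, where the authors' table lists junctions around an alternative exon. Those of CCNL2 reached a probability of change of 0.95 in that table, and those around the exons shown for CCNL1 and CDK8 did not. They are shown here 5′ to 3′ from the GENCODE v29 transcripts on GRCh38, each with the last 15 bases of the exon before it. The first is a 14-base exon of CCNL2 (exon 6 of 12 in the model CCNL2-213, chr1:1392790-1392803, minus strand), with the exon in capitals, then the following coding bases up to the model's stop codon, also in capitals. The second is the start of an alternative exon of CCNL1 (exon 4 of 13 in CCNL1-216, chr3:157157011-157157083, minus strand, 73 bases), printed as far as its stop codon in capitals. The third is coding exon 7 of 13 of CDK8 (model CDK8-201, chr13:26393367-26393510, plus strand), in capitals, with 15 bases of the next exon.
CCNL2 14-base exon: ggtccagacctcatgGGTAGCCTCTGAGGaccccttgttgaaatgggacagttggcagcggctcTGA
CCNL1 alternative exon: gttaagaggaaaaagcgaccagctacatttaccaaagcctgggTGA
CDK8 exon 7: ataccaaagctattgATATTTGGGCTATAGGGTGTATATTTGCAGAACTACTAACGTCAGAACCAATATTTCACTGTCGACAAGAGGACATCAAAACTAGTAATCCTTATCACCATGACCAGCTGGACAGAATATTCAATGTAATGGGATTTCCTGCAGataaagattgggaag
GENCODE marks CCNL2-213 and CCNL1-216 as targets of nonsense-mediated decay, the pathway that degrades mRNA with an early stop codon. The 14 bases of the CCNL2 exon are not a whole number of codons, and in CCNL2-213 the stop codon begins at base 36 past the exon. The next exon of CCNL2-213 starts inside the 2530-base intron by which the coding model CCNL2-201 skips the 14-base exon. The bases past the exon therefore do not start in an exon of CCNL2-201. The CCNL1 exon carries its stop codon from its base 29, both in this model and in the longer 148-base form of CCNL1-226 (chr3:157156936-157157083). The 144 bases of CDK8 exon 7 make 48 whole codons.

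Across all 8 libraries, CDK8 and CCNK fell in SY-351 and the other 8 genes did not pass the test, so 2 of 10 were called lower and 0 of 10 higher (edgeR's quasi-likelihood test, Benjamini-Hochberg adjusted p below 0.05 over all genes). Over the 15472 genes tested, 13.6% were called lower and 2.91% called higher. At an unadjusted p below 0.05 edgeR had 4 members lower and 0 higher, and DESeq2 called 4 lower and 0 higher. Over all genes 31.8% had such an unadjusted p in either direction, and DESeq2 called 21.9% lower and 6.65% higher. Against DMSO 3 and 4 alone, CDK8, CDK12 and CCNK fell and CCNL1 and CCNL2 rose, 3 lower and 2 higher of 10, where 26.4% of 15811 genes were called lower and 21.9% called higher. Their 10 folds had a median of -0.79 on the log2 scale with all libraries, beside 0.00 over all genes tested, and -0.06 with DMSO 3 and 4, beside 0.01. Against DMSO 1 and 2 alone, 9 of 10 fell, all but CDK19, and 0 rose, where 38.4% of 15618 genes were called lower and 40.8% higher. The fit on DMSO 3 and 4 also depends on the scaling. Scaled to the total count alone, which moved the median of all genes to -0.45, it called 2065 genes higher and 6848 lower in place of 3466 and 4172, and 7 of the 10 genes lower and 2 higher.

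**Figure D1:**
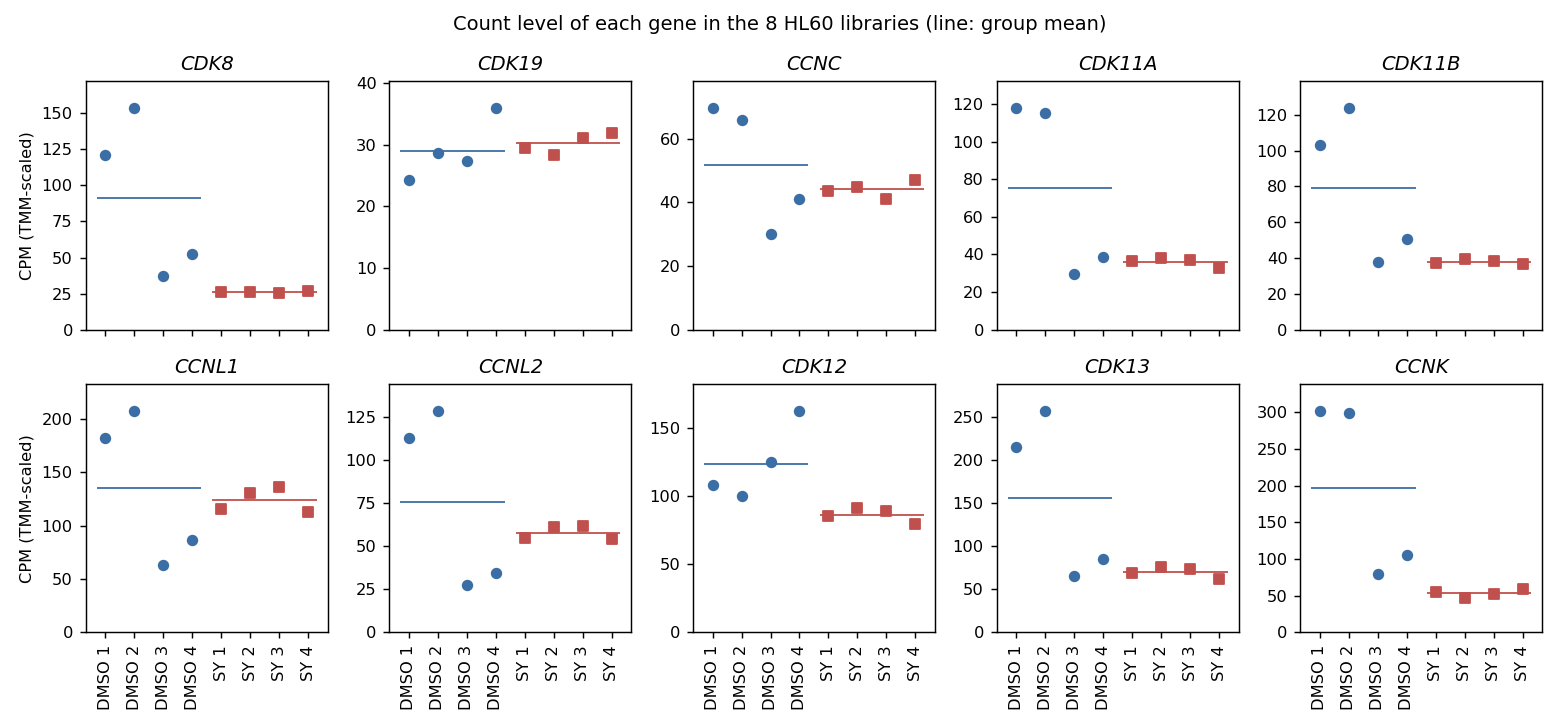
CPM (TMM-scaled, linear axis from 0) of each gene in DMSO 1 to 4 (circles) and SY-351 1 to 4 (squares, labelled SY), with lines at the group means. The SY-351 libraries lie below all 4 DMSO libraries for CDK8, CDK12 and CCNK, while DMSO 1 and 2 lie above DMSO 3 and 4 for every gene but CDK19 and CDK12.

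**Figure D2:**
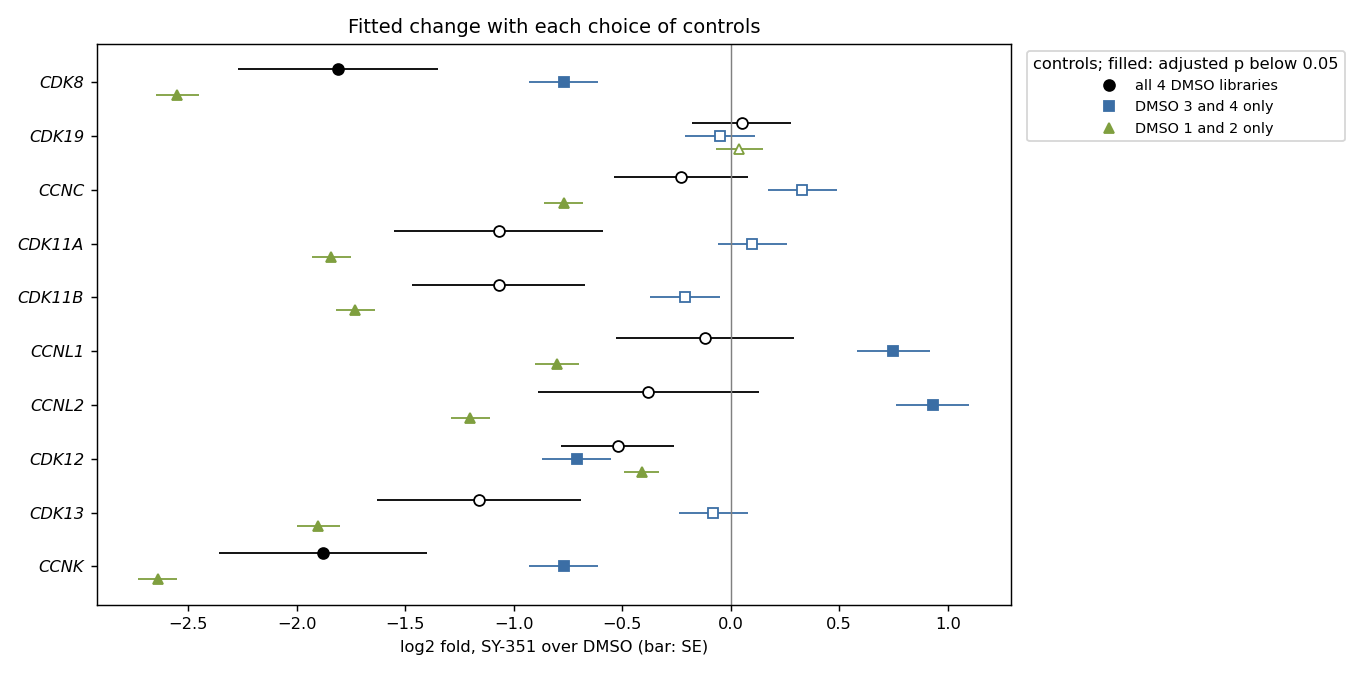
Fitted log2 fold of SY-351 over DMSO for each gene with its standard error (SE), with all 4 DMSO libraries, DMSO 3 and 4 only, or DMSO 1 and 2 only as controls. Filled points passed an adjusted p of 0.05; CCNL1 and CCNL2 lie at 0.75 and 0.93 against DMSO 3 and 4 and at -0.80 and -1.20 against DMSO 1 and 2.

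The spread among the controls sets what these fits can call. The mean of DMSO 1 and 2 was 3.07 times that of DMSO 3 and 4 for CDK8, 3.25 times for CCNK and 3.90 times for CCNL2, but 0.723 times for CDK12 and 0.837 times for CDK19. Taken against all 4 DMSO libraries without a fit, the 4 SY-351 libraries were all lower for 3 genes, CDK8, CDK12 and CCNK, and all higher for 0, beside 18.2% and 15.5% of the 15472 genes tested. Of the 10 genes, these 3 were below both pairs of DMSO libraries, and CCNL1 and CCNL2 lay between the pairs.

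In the Mediator kinase module, CDK8 was lower in SY-351 and its paralog CDK19 showed no call under any of these choices of controls. CDK8 (NM_001346501, chr13:26254128-26405236, plus strand) was at 121, 154, 37.4 and 52.3 CPM in DMSO 1 to 4 and at 26, 25.8, 25.6 and 26.5 CPM in SY-351 1 to 4. The groups did not overlap, and the treated libraries lay within 1 CPM of each other. Its log2 fold was -1.81 (SE 0.46, edgeR adjusted p = 0.0333), and -0.77 (SE 0.16, adjusted p = 3.29e-06) against DMSO 3 and 4. The call with all libraries was lost without DMSO 1 (adjusted p = 0.0789), without DMSO 2 (0.0685) and without any 1 of the SY-351 libraries (0.105 to 0.11), and held without DMSO 3 (0.00899) or DMSO 4 (0.0263).

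CDK19 (NM_001300964, chr6:110609977-110815855, minus strand) was at 24.2, 28.7, 27.3 and 36.0 CPM in DMSO, against 29.5, 28.4, 31.0 and 31.9 CPM in SY-351. The groups overlapped throughout, and edgeR's log2 fold was 0.05 (SE 0.23, adjusted p = 0.888). Against DMSO 3 and 4 with total count scaling it passed as lower at -0.47 (adjusted p = 8.39e-05), beside the median of -0.45 over all genes in that fit. The first 1236 bases of its interval are shared with AMD1 on the other strand. CCNC, for cyclin C (NM_001013399, chr6:99542386-99568814, minus strand), was at 69.8, 65.9, 30.1 and 41.2 CPM in DMSO and at 43.7, 44.7, 41.2 and 46.9 CPM in SY-351, so that the treated libraries fell inside the range of the controls. Its log2 fold was -0.23 (SE 0.31, adjusted p = 0.641) with all libraries and 0.33 (SE 0.16, adjusted p = 0.082) against DMSO 3 and 4. Neither passed.

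The partners of the kinase module, MED12, MED12L, MED13 and MED13L, form its scaffold. With all libraries 0 of 4 were called by edgeR, 0 at an unadjusted p below 0.05 and 0 by DESeq2, with log2 folds of -0.08, 0.45, 0.44 and 0.92 in that order. Against DMSO 3 and 4, MED12L (log2 fold -0.40, edgeR adjusted p = 0.0423) and MED13 (-0.42, 0.02) fell and 0 of 4 rose, beside 26.4% of all genes called lower. Against DMSO 1 and 2, MED12L, MED13 and MED13L rose (2.79, 2.87 and 2.95), 3 of 4, beside 40.8% of all genes called higher. MED12 ran from 107 to 142 CPM over all 8 libraries. MED13L, by contrast, was at 15.4 and 16.1 CPM in DMSO 1 and 2 and at 108 to 145 CPM in the other 6.

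For CDK11 and its cyclins, edgeR on TMM-scaled counts called 0 of 4 genes with all libraries, and the cyclins alone passed against DMSO 3 and 4, as higher. CDK11A (NM_033529, chr1:1702378-1724357, minus strand) was at 118, 115, 29.6 and 38.7 CPM in DMSO and at 36.2, 38.2, 36.8 and 32.5 CPM in SY-351. CDK11B (NM_033490, chr1:1635224-1659004, minus strand) was at 103, 124, 37.9 and 50.7 CPM in DMSO and at 37.0, 39.4, 38.1 and 36.5 CPM in SY-351. For both, the treated libraries overlapped DMSO 3 and 4 and lay under DMSO 1 and 2. In the edgeR fit both stood at -1.07 on the log2 scale, with SE 0.48 and adjusted p = 0.166 for CDK11A and SE 0.40 and adjusted p = 0.106 for CDK11B. Against DMSO 3 and 4 the folds were 0.10 (adjusted p = 0.68) and -0.21 (adjusted p = 0.295). With all libraries CDK11B had an unadjusted edgeR p of 0.0274. It passed as lower in DESeq2 (log2 fold -1.27, adjusted p = 0.0436) and in edgeR with total count scaling (-0.79, adjusted p = 0.0236). CDK11A passed in neither (adjusted p = 0.0828 and 0.0928). The 2 genes are near-identical copies: of the 50-base windows of the transcript CDK11A-205, 61.5% occur unchanged in a CDK11B transcript. How the authors placed reads that fit both is not given in the sources used here, so their separate values are uncertain. The same count was 0 for CDK8 in CDK19, CDK12 in CDK13 and CCNL1 in CCNL2.

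CCNL1, for cyclin L1 (NM_001308185, chr3:157146501-157160760, minus strand), was at 182, 208, 63.4 and 86.6 CPM in DMSO and at 116, 131, 136 and 113 CPM in SY-351. CCNL2, for cyclin L2 (NM_001039577, chr1:1392287-1399342, minus strand), was at 113, 129, 27.5 and 34.5 CPM in DMSO and at 55.1, 61.1, 61.8 and 54.4 CPM in SY-351. In both genes every treated library stood above DMSO 3 and 4 and below DMSO 1 and 2. With all libraries the log2 folds were -0.12 for CCNL1 (SE 0.41, edgeR adjusted p = 0.856) and -0.38 for CCNL2 (SE 0.51, adjusted p = 0.633). Against DMSO 3 and 4 both rose, CCNL1 by 0.75 (SE 0.17, adjusted p = 2.36e-05) and CCNL2 by 0.93 (SE 0.17, adjusted p = 1.35e-07), and against DMSO 1 and 2 both fell, with log2 folds of -0.80 and -1.20. The direction for both cyclins L thus turns with the choice of controls. The CCNL2 row belongs to a short transcript and covers the 5′ part of the gene.

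Of the genes listed with CDK11 for splicing or histone mRNA, SLBP, which binds the stem-loop of histone mRNA, fell with every choice of controls. It went from 299, 370, 88.4 and 114 CPM in DMSO to 21.5, 21.8, 21.7 and 18.8 CPM in SY-351. Its log2 fold was -3.38 (SE 0.52, edgeR adjusted p = 0.00707) with all libraries and -2.25 (SE 0.15, adjusted p = 4.5e-46) against DMSO 3 and 4. It was the 1 of 4 tested genes of this list called with all libraries, beside 13.6% of all genes called lower. NPAT, an activator of histone genes, fell against DMSO 3 and 4 (log2 fold -1.12, adjusted p = 1.84e-12), not with all libraries (-0.18, adjusted p = 0.928), and was listed at 0.536 and 0.793 CPM in DMSO 1 and 2, below its 13 to 17.2 CPM in SY-351. SF3B1, a splicing factor that CDK11 phosphorylates, had folds of 0.93 (adjusted p = 0.663) with all libraries and -0.04 (adjusted p = 0.891) against DMSO 3 and 4. It was at 2.88 and 2.16 CPM in DMSO 1 and 2 and at 292 to 381 CPM in the other libraries. Against DMSO 1 and 2 alone its fold was 6.86 (edgeR adjusted p = 3.8e-10). SAP30BP, a CDK11 partner, had folds of -0.25 (adjusted p = 0.507) with all libraries and -0.29 (adjusted p = 0.124) against DMSO 3 and 4. CASP8AP2 was not analysed here for its level.

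Of cyclin K and its kinases, CCNK fell in SY-351 with all libraries, and CDK12 and CDK13 did not pass in edgeR on TMM-scaled counts. CCNK, for cyclin K (NM_001099402, chr14:99481408-99512430, plus strand), was at 302, 299, 79.5 and 105 CPM in DMSO and at 55.3, 47.1, 52.3 and 58.8 CPM in SY-351. The groups did not overlap, and the log2 fold was -1.88 (SE 0.48, edgeR adjusted p = 0.0342) with all libraries and -0.77 (SE 0.16, adjusted p = 3.42e-06) against DMSO 3 and 4. Its call was lost without DMSO 1 (adjusted p = 0.0812), without DMSO 2 (0.0759) and without any 1 of the SY-351 libraries (0.103 to 0.114), and held without DMSO 3 or DMSO 4. The interval shares 12242 bases with CCDC85C on the other strand, whose level was 326, 321, 67.1 and 87.8 CPM in DMSO, against 45, 35.9, 40.3 and 49.5 CPM in SY-351. Whether the library kit kept the strand of the RNA is not given in the sources used here, so reads of CCNK and CCDC85C cannot be told apart.

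CDK12 (NM_015083, chr17:39461485-39534565, plus strand) was at 108, 100, 125 and 163 CPM in DMSO and at 85.9, 91.3, 89.5 and 79.6 CPM in SY-351. Every treated library lay below every control, although by little against DMSO 2. The log2 fold did not pass with all libraries (-0.52, SE 0.26, edgeR adjusted p = 0.207), and it passed against DMSO 3 and 4 (-0.71, SE 0.16, adjusted p = 2.02e-05) and against DMSO 1 and 2 (-0.41, SE 0.08, adjusted p = 0.00164). CDK13 (NM_003718, chr7:39950255-40099580, plus strand) was at 216, 258, 65.3 and 85.6 CPM in DMSO and at 68.7, 76.4, 73.7 and 62.0 CPM in SY-351, inside the range of DMSO 3 and 4 for all but SY-351 4, which lay below it. Its fold was -1.16 (SE 0.47, adjusted p = 0.13) with all libraries and -0.08 (SE 0.16, adjusted p = 0.729) against DMSO 3 and 4. With all libraries DESeq2 called CDK12 lower (log2 fold -0.64, adjusted p = 0.032) but not CDK13 (-1.37, adjusted p = 0.0525). Under total count scaling edgeR called CDK13 lower (-0.83, adjusted p = 0.0413) but not CDK12 (-0.56, adjusted p = 0.496).

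Among 18 tested DNA repair genes of the kind that depends on CDK12 and CDK13, 1 was called lower and 0 higher with all libraries (0 higher also at an unadjusted p below 0.05 in edgeR and by DESeq2), and 9 lower and 2 higher against DMSO 3 and 4. Over all genes 13.6% were lower with all libraries, and 26.4% were lower and 21.9% higher against DMSO 3 and 4. The 1 called with all libraries was RAD51D, a gene of homologous recombination, at 41.5, 31.0, 23.4 and 31.3 CPM in DMSO, against 15.5, 15.5, 13.4 and 12.7 CPM in SY-351 (log2 fold -1.16, SE 0.27, edgeR adjusted p = 0.0236). That call was lost without DMSO 1 (adjusted p = 0.0566) and without any 1 of the SY-351 libraries (0.0876 to 0.105). MDC1 was not analysed here for its level. The median log2 fold of the 18 was 0.30 with all libraries, beside 0.00 over all genes, and -0.33 against DMSO 3 and 4, beside 0.01. Against DMSO 1 and 2 alone, 13 were called higher and 1 lower, beside 40.8% and 38.4% of all genes. Their median was then 3.36, beside 0.19, so the direction for this list turns with the choice of controls.

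Of the other transcription kinases and partners, CDK9, the kinase of the elongation factor P-TEFb, fell, the 1 of 5 called with all libraries, beside 13.6% of all genes called lower. In all 3 of 5 fell against DMSO 3 and 4, beside 26.4%. It was at 158, 139, 44.3 and 53.8 CPM in DMSO, against 32.1, 28.5, 30.4 and 29.7 CPM in SY-351, and its log2 fold in the edgeR fit was -1.71 (SE 0.45, adjusted p = 0.0363), lost without DMSO 1 (0.0852), DMSO 2 (0.0812) or any 1 of the SY-351 libraries (0.113 to 0.117), and of -0.68 (adjusted p = 5.12e-05) against DMSO 3 and 4. Cyclin T1 (CCNT1) and cyclin H (CCNH, the CDK7 partner) fell against DMSO 3 and 4, with log2 folds of -1.03 (adjusted p = 3e-10) and -1.07 (adjusted p = 8.68e-10), were not called with all libraries (-0.07 and -0.21, adjusted p = 0.971 and 0.872), and rose against DMSO 1 and 2 (4.55 and 2.23). MNAT1, the assembly factor of the CDK7 complex, had a fold of 0.82 (adjusted p = 0.554) with all libraries and -0.07 (adjusted p = 0.774) against DMSO 3 and 4. CCNT2 had folds of 0.60 (adjusted p = 0.558) and -0.16 (adjusted p = 0.455). Against DMSO 1 and 2, MNAT1 and CCNT2 rose (log2 folds 3.66 and 2.28). CDK7 was not analysed here for its level. Of 5 tested splicing kinases edgeR called 0 with all libraries, with 1 lower at an unadjusted p below 0.05 and 1 lower by DESeq2. Against DMSO 3 and 4 CLK1 rose (0.56, adjusted p = 0.00196), CLK3 fell (-0.47, adjusted p = 0.00698), and SRPK1 (0.14) and SRPK2 (0.10) did not pass. With all libraries their folds were 1.41, -0.56, 1.03 and -0.03 in that order. Against DMSO 1 and 2 they were 3.93, -0.77, 3.86 and -0.28, and all of these passed.

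Ratios between 2 members within a library do not depend on the scaling of that library. Of 8 ratios, 4 had no overlap between groups, and each reached the smallest p that 4 against 4 libraries can give (0.0286, exact permutation test, two-sided), but adjusted over the 8 the p was 0.0571, which missed the threshold. These ratios share members, such as CDK8 over both CDK19 and CCNC. How often ratios of other gene pairs separate in this way was not tested. The log2 ratio of CDK11B to CCNL1 was -0.82, -0.74, -0.74 and -0.77 in DMSO 1 to 4 and -1.65, -1.73, -1.84 and -1.63 in SY-351. Here DMSO 1 and 2 lay with DMSO 3 and 4, and the difference was -0.94, or -0.96 against DMSO 3 and 4 alone. The mean of DMSO 1 and 2 was 2.57 times that of DMSO 3 and 4 for CDK11B and 2.6 times for CCNL1. For CDK11A it was 3.41 times and for CCNL2 3.9 times. Other pairings of CDK11 with a cyclin L were not among the 8 ratios, and the separate values of CDK11A and CDK11B are uncertain. The log2 ratio of CDK13 to CCNK was -0.48, -0.21, -0.28 and -0.30 in DMSO and 0.31, 0.70, 0.49 and 0.08 in SY-351, a difference of 0.71, or 0.69 against DMSO 3 and 4. Reads of CCNK and CCDC85C cannot be told apart, as given above, and both ratios over CCNK carry that limit.

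The ratios of CDK8 to its paralog and to its cyclin were lower in every treated library than in every control. The log2 ratio of CDK8 to CDK19 was 2.32, 2.42, 0.45 and 0.54 in DMSO and -0.18, -0.14, -0.27 and -0.27 in SY-351, a difference of -1.65, or -0.71 against DMSO 3 and 4. The log2 ratio of CDK8 to CCNC was 0.80, 1.22, 0.31 and 0.34 in DMSO and -0.75, -0.79, -0.68 and -0.83 in SY-351, a difference of -1.43, or -1.09 against DMSO 3 and 4. The other 4 ratios overlapped between groups. CDK11A to CDK11B differed by 0.09 (exact permutation p = 0.514, adjusted 0.514), CCNL1 to CCNL2 by 0.11 (0.486, adjusted 0.514), CDK12 to CDK13 by 0.43 (0.429, adjusted 0.514) and CDK12 to CCNK by 1.15 (0.171, adjusted 0.274). These 4 differences were 0.30, -0.18, -0.63 and 0.06 against DMSO 3 and 4 alone, so that CCNL1 to CCNL2 and CDK12 to CDK13 turned in sign.

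**Figure D3:**
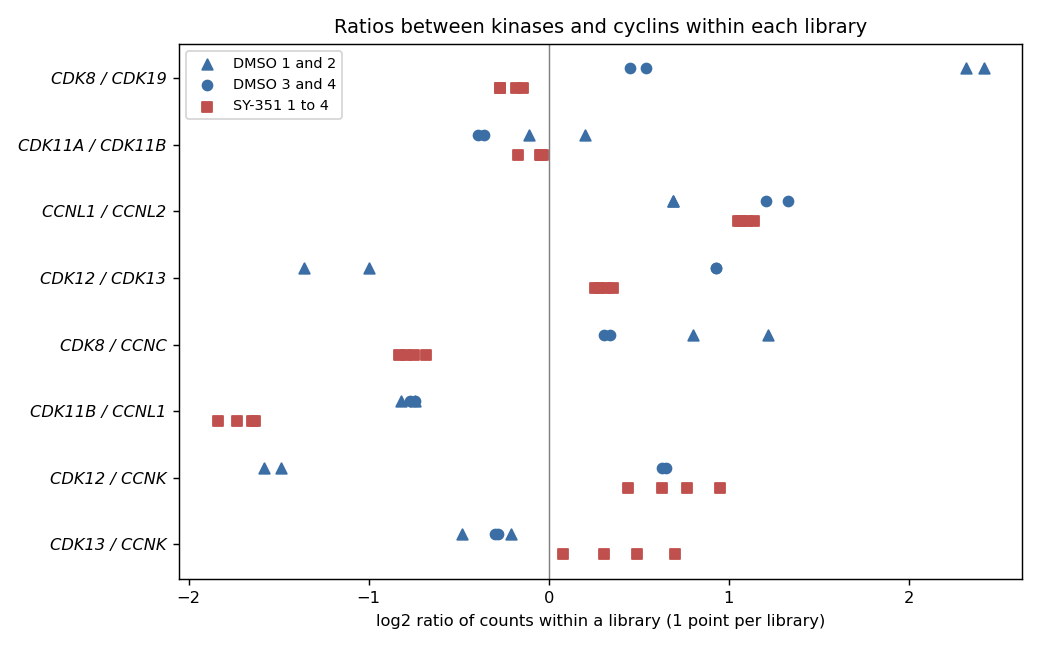
Log2 ratio of the counts of 2 genes within each library, with DMSO 1 and 2 as triangles, DMSO 3 and 4 as circles and SY-351 1 to 4 as squares. For CDK11B to CCNL1 all 4 DMSO libraries lie between -0.82 and -0.74 and all 4 SY-351 libraries between -1.84 and -1.63. The separate values of CDK11A and CDK11B are uncertain, as their transcripts share much of their sequence.

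Levels can be ordered between genes only per length. Per kb of annotated exons the order in SY-351 was CCNL1 (mean 62.0 CPM per kb), CCNL2 (49.0), CCNC (42.6), CCNK (15.2), CDK11A (14.9), CDK12 (14.6), CDK11B (12.6), CDK8 (8.57), CDK13 (6.93) and CDK19 (4.98). All 4 cyclins stood above all 6 kinases by these means, and the 3 neighbours CCNK, CDK11A and CDK12 overlapped in their ranges. The other neighbours did not overlap over the 4 SY-351 libraries. In DMSO the highest was again CCNL1 (67.5 ± 35.3, SD, n = 4) and the lowest CDK19 (4.79 ± 0.823, SD, n = 4). The DMSO range of CDK19, 4 to 5.94, lay below all others, of which CDK13 reached lowest, to 6.44. All other neighbours in the DMSO order overlapped in their ranges. The counts cover whole intervals with introns, and per kb of the counted interval 4 of the 10 genes kept their place in the SY-351 order.

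**Figure D4:**
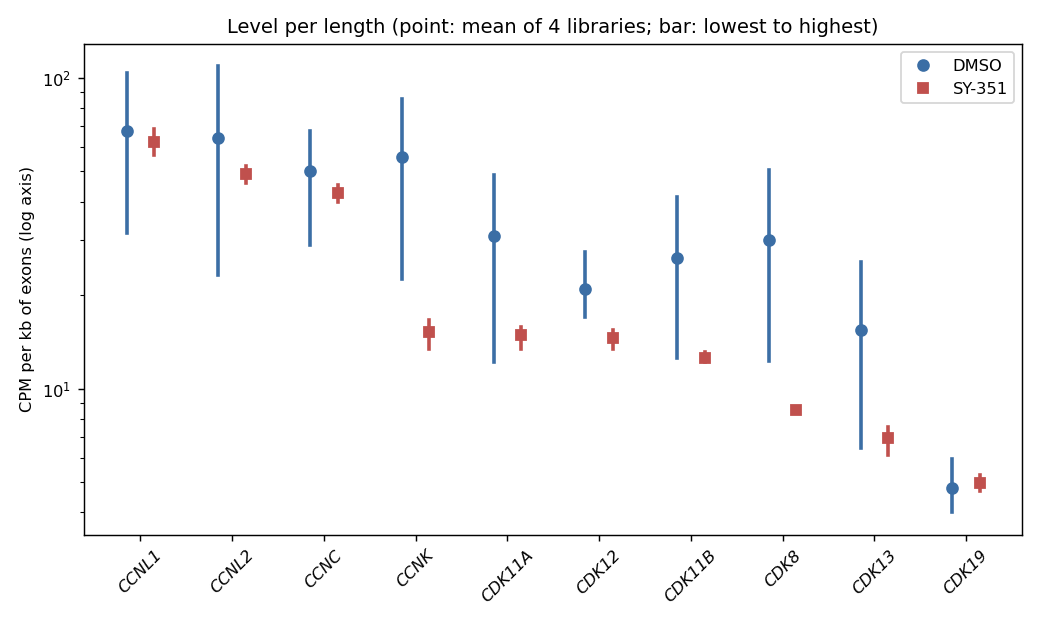
CPM per kb of annotated exons (log axis) for each gene, with the mean of 4 libraries as a point and the lowest to the highest library as a bar, DMSO as circles and SY-351 as squares. In SY-351 the cyclins CCNL1, CCNL2 and CCNC stand at 62.0, 49.0 and 42.6, above the other 7 genes.

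The gene most like each member, by Pearson r of log2 CPM over the 8 libraries among 8201 other genes with a mean of at least 10 CPM, was PAIP1 for CDK8 (r = 0.9996), DCAF17 for CDK19 (0.940), SUCLG1 for CCNC (0.992), CLDN15 for CDK11A (0.9994), STYX for CDK11B (0.9993), SFXN5 for CCNL1 (0.995), TSPAN4 for CCNL2 (0.997), EIF3A for CDK12 (0.988), ILKAP for CDK13 (0.9993) and CCDC85C for CCNK (0.9993). These values describe 8 libraries that share the split between DMSO 1 and 2 and the rest.

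Splicing changed most in the cyclins L. The authors' deposited table lists 6716 local splicing variations in 3700 genes, each a set of junctions that share a splice site, with the expected share of reads on each junction in control and SY-351 and the probability that the share differs by at least 0.2. Of the 6 members listed, CCNL1 (3 variations) and CCNL2 (6 variations) reached a probability of 0.95, beside 64.2% of all genes in the table. CDK11A (largest probability 0.892), CDK12 (0.802), CDK8 (0.616) and CDK19 (0.553) did not, and CCNC, CDK11B, CDK13 and CCNK have no listed variation, from which nothing can be read about them. At least as many variations as in CCNL2 were listed in 37 of the 3700 genes. A folder named in the table carries the words "no outliers", so libraries may be missing from the comparison. The sources used here do not say which ones entered it as control. The table's coordinates are on another build, and each junction was matched to a GENCODE intron of the same gene by its length alone.

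In CCNL2, junctions that skip the 14-base exon lost reads and those into it gained them, in the authors' deposited table. From the exon before it, the share on the 2530-base intron that skips the exon, used by the coding model CCNL2-201 alone, went from 0.636 in control to 0.034 in SY-351. The share on the 592-base intron that leads to the exon's 3′ splice site went from 0.361 to 0.944. That intron is in the decay models CCNL2-213 and CCNL2-216 and also in CCNL2-202, the short coding model of the counted row, so it is not specific to the 14-base exon printed above. Seen from the exon after it, the 2530-base intron went from 0.833 to 0.317 and the 1924-base intron, in CCNL2-216 alone, from 0.034 to 0.478. All 4 had a probability of 1.

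Out of the 14-base exon itself, the authors' deposited table shows the 1214-base intron of CCNL2-213 going from 0.244 to 0.610 (probability 0.971) and the 1924-base intron of CCNL2-216 from 0.748 to 0.389 (0.964). The sequence printed for CCNL2 follows the first of these. Another 5′ splice site nearby moved in the same way, with the 1103-base intron of CCNL2-208 from 0.319 to 0.854 and the 1813-base intron of CCNL2-215 from 0.630 to 0.110 (both probability 1). Further downstream, a 1486-base intron went from 0.893 to 0.072, the largest change among the members at -0.840, while introns of 206 and 182 bases at the same 3′ splice site went from 0.036 to 0.456 and from 0.064 to 0.473. The 182-base intron has no match in GENCODE.

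**Figure D5:**
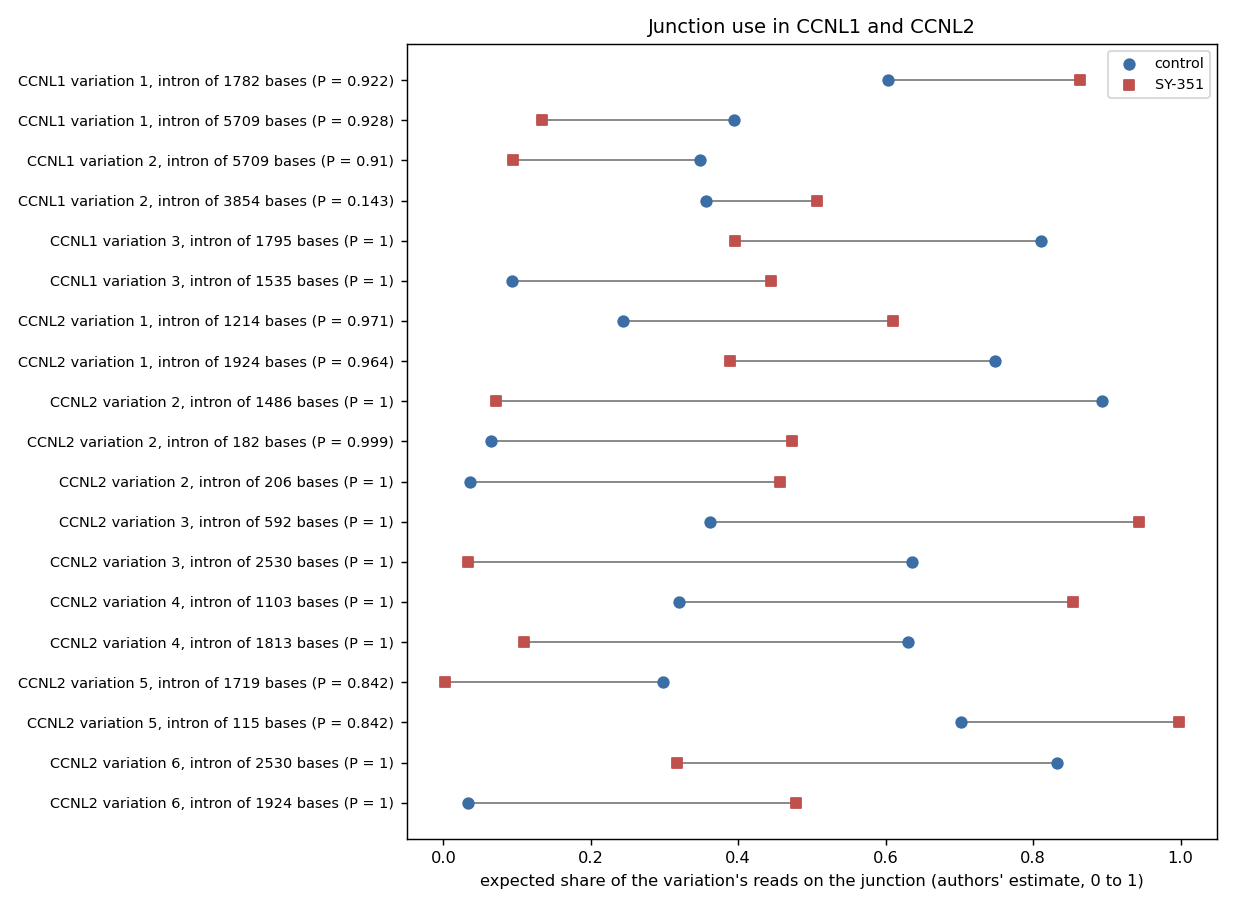
Expected share of a variation's reads on a junction, from the authors' deposited table, in control (circles) and SY-351 (squares) for each CCNL1 and CCNL2 junction that differed by at least 0.1, named by the length of its intron, with the authors' probability P. The intron of 2530 bases in CCNL2, which skips the 14-base exon, falls from 0.636 to 0.034 and from 0.833 to 0.317.

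In CCNL1 the authors' deposited table shows the same kind of shift around the alternative exon printed above. The 5709-base intron that skips the exon, part of the coding models CCNL1-202 and CCNL1-203, went from 0.394 to 0.134 (probability 0.928), and the 1782-base intron into the exon from 0.603 to 0.863 (0.922), both short of 0.95. The 1782-base intron is in the decay models CCNL1-216, CCNL1-219 and CCNL1-226 and in 1 or more coding models as well. The 3854-base intron out of the 73-base form, in no coding model, went from 0.356 to 0.507 (0.143). Further downstream the 1795-base intron, found in coding models, went from 0.810 to 0.396 and the 1535-base intron, in the decay model CCNL1-226 alone, from 0.093 to 0.444, both with a probability of 1.

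The 4 other listed kinases had smaller differences, and none of their junctions reached 0.95 in the authors' deposited table. For CDK8 the junction that skips exon 7, the exon printed above, went from 0.001 to 0.234 (probability 0.616) as seen from exon 8, and from 0.000 to 0.132 as seen from exon 6 (probability 0.000195). In CDK11A a 2623-base intron of its coding models went from 0.705 to 0.440 (0.892), and a 6705-base junction with no GENCODE match went from 0.212 to 0.423 (0.648). In CDK19 a 27674-base intron of CDK19-201 and CDK19-204 went from 0.214 to 0.422 (0.553). The CDK12 variation starts 13266 bases beyond the counted interval, where a 596-base intron of CDK12-203 went from 0.472 to 0.734 (0.802) and a 3207-base intron of CDK12-204 and CDK12-205 from 0.510 to 0.256 (0.786).

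Among the partner lists, MED13 (the 1 Mediator partner listed) had a variation at 0.95 or more in the authors' deposited table. CDK7 and MNAT1 (of 4 other transcription kinases and partners listed) did too, as did CASP8AP2 and NPAT (of 4 genes listed with CDK11). So did 10 of the 12 DNA repair genes listed there, ATR, BLM, BRCA1, BRCA2 and CHEK1 among them, and 3 of the 5 splicing kinases listed, CLK1, CLK4 and SRPK1, beside 64.2% of all genes in the table. RAD51D, which fell in level, reached 0.771.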

How the data were processed

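Whole-number read counts per gene were made and deposited by the authors with featureCounts 1.6.2 at strand setting 1, per the file headers, 1 interval a RefSeq transcript with introns included. The submitters' processing notes name GRCh38 and DESeq2. Of 18093 rows, 17871 were named through a RefSeq gene table, 130 through GENCODE v29 and 92 kept their identifier; 13 with a repeated symbol were set aside. The deposited splicing table holds the authors' own comparison (expected inclusion, its difference, a probability) with the column names of MAJIQ and Voila, per the file headers; its difference is control minus SY-351 and was turned round.

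The test was edgeR 4.0.16 under R 4.3.3 (TMM, filterByExpr, robust glmQLFit, glmQLFTest, two-sided, Benjamini-Hochberg, 0.05), group as the only term. The SE was taken as the log2 fold over the root of its F statistic. Ratios used counts plus 0.5. On simulated counts the fit on 8 libraries found 0 of 100 genes moved 2-fold and 1 of 100 moved 4-fold over 15472 genes, and without DMSO 1 and 2 it recovered 67 and 89 of 100 over 15811. False calls among the genes left unmoved were 0 and 10. The simulated DMSO libraries shared the same mean for a gene, with independent spread and no split into pairs. These recoveries need not hold for the real libraries. Alternatives were DESeq2 1.42.0, limma-voom (limma 3.58.1), other scalings and filters, a replicate block and leaving out libraries.

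The members, lists and tests were chosen with earlier results of these data known. The rule named all members, every gene of the Mediator, other kinase and CDK11 lists, up to 6 called repair genes and splicing kinases (otherwise the 4 highest), and the gene most like each member. The genes ATR, BLM, BRCA1, BRCA2, CHEK1, CLK4 and AMD1 and the marker genes were named outside it. How technical repeats entered a column is not given in the sources used here. 1 further gene of the repair list is not reported here.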

Additional observations from a re-analysis of the deposited data

Results flagged for a closer look

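Of 36 groups of 4 libraries checked for a library far from the rest, 1 had one, where chance alone gives about 1 in 20. The log2 ratio of CDK11A to CDK11B was -0.167 in SY-351 4, while the other 3 SY-351 libraries lay between -0.0492 and -0.0309. The gap was 0.865 of the group's range.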

How the results depend on the processing

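The counts of called genes and members moved with the controls, the scaling and the tool, and the cause was not tested. With 450 genes higher and 2100 lower at first, total count scaling gave 215 higher, DESeq2 1057 higher and 3474 lower, DMSO 3 and 4 alone 3466 and 4172, DMSO 1 and 2 alone 6372 and 5996, and leaving out 1 library 61 to 1885 higher and 473 to 3438 lower. Members called lower numbered 2 at first, 4 under total count scaling and under DESeq2, 1 under limma-voom, 9 with DMSO 1 and 2 alone, and 0 to 5 leaving out 1 library. Members called higher numbered 0 at first and 2 with DMSO 3 and 4 alone. At an inclusion difference of 0.1 whatever the probability, 6 members had a splicing variation in place of 2. Every variation in the authors' table has a junction that differs by about 0.117 or more. All 6 members listed there thus had to pass, and nothing can be read from that count. Per kb of the counted interval, 4 of 10 genes kept their place in the order.

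With the replicate number as a replicate block, edgeR called 0 genes higher and 0 lower and 0 members (3649 genes had an unadjusted p under 0.05). Same-numbered libraries did not deviate together from their group means (r = 0.008, -0.030, 0.007 and -0.115). No DMSO library correlated best with the SY-351 library of its own number. The DMSO deviations hold the split between DMSO 1 and 2 and DMSO 3 and 4, so this check cannot tell whether the numbers mark a shared batch. On DMSO 3 and 4 alone, 2 settings were chosen after seeing the data. Total count scaling gave 2065 higher and 6848 lower, with 2 members higher and 7 lower, and a replicate block gave 1218 genes higher and 2139 lower, with 1 member higher and 0 lower.

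Of 584 alternative values of single genes and ratios, 445 counted as the same. For a gene this means the same direction and call. For a ratio it means a shift of less than the larger group SD, whatever the sign. Of the rest, all for single genes, 33 lost the call, 46 gained one and 42 turned direction with no call in either fit. The other 18 turned direction with a call in either or both fits. With DMSO 3 and 4 alone these were CCNL1 (0.75), CCNL2 (0.93), MED12L (-0.40) and MED13 (-0.42), and with DMSO 1 and 2 alone CCNH (2.23), CCNT1 (4.55) and NPAT (4.41). With DMSO 3 and 4 and total count scaling they were CDK19 (-0.47), CCNL1 (0.33), CCNL2 (0.50), MED12L (-0.84), MED13 (-0.84), MED13L (-0.31), MNAT1 (-0.50), CCNT2 (-0.58), SF3B1 (-0.46) and SRPK1 (-0.28), beside a median of -0.45 over all genes, and with the block CCNL2 (0.94).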
